A study of Mus musculus with 4 samples.

Results

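The genes described here encode 10 heat shock proteins and co-chaperones that handle tau, namely Hspa8, Hspa1a, Hspa1b, Hsp90aa1, Hsp90ab1, Dnajb1, Hsph1, Bag3, Hspb8 and Stub1. They were taken by symbol from the 55403 features of the count tables, and all 10 were present. The list was chosen with earlier results of these data known. The measurements were counts of unique molecular identifiers (UMIs, each standing for 1 captured RNA molecule) in single nuclei of mouse hippocampus. Each library came from frozen tissue that was pooled before the nuclei were released. WT mice were the unaltered littermates (1 library). PS19 mice carry human tau (MAPT) with the P301S change, in the 1N4R form, driven by the promoter of the prion protein gene Prnp (2 libraries). TG_PS19 mice carry the same tau transgene together with a SORLA transgene placed in Rosa26 and driven by a CMV/β-actin promoter (1 library). SORLA is a sorting receptor encoded by SORL1. The series calls the mice aged, while the exact age, the sex and the number of animals in each pool are not given in the sources used here. The comparison of PS19 with WT shows which chaperone RNAs differ with the tau transgene, and that of TG_PS19 with PS19 shows which differ when SORLA is overexpressed as well. These comparisons share the PS19 libraries. It is not stated if separate pools gave the 2 PS19 libraries, so that p-values measure only the spread between these libraries, and WT and TG_PS19 have no replicate.

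The libraries held 4643 to 12762 barcodes and 20064025 to 48670533 UMIs, with a median of 2643 to 3708.5 UMIs per barcode. After removal of low-quality nuclei and doublets, 4467 to 11458 nuclei remained per library. Between 5 and 32 barcode sequences occurred in any 2 libraries. Nuclei were grouped into cell classes by marker genes, with the 10 chaperones kept out of the clustering, and 12 classes with at least 50 nuclei in every library were tested. Human MAPT stood at 0 CPM in WT (CPM, counts scaled so that the UMIs of a class or library have the same total), 18.1 and 18.8 CPM in the PS19 pair and 12.9 CPM in TG_PS19, and human SORL1 at 66.0 CPM in TG_PS19 against at most 0.374 CPM elsewhere. The TG_PS19 library stood apart in sex: 51.2% of its nuclei had UMIs that marked them as female by Xist, and at most 0.244% did in the other libraries. For that reason the TG_PS19 results called for the 10 chaperones in whole classes are also given for its nuclei marked as male by Y-linked genes. Fits of single clusters and the named network genes are given with all TG_PS19 nuclei only. For the network, a count of calls with male-marked nuclei is given at the end.

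Hsp70 and Hsp90 proteins bind unfolded stretches of other proteins and release them in cycles of ATP hydrolysis. Co-chaperones deliver clients, speed the cycle or decide where a client goes. Tau is a client of these machines: it can be refolded, marked with ubiquitin for the proteasome, or passed to autophagy. Hspa8 (Hsc70) is the constitutive cytosolic Hsp70, and Hspa1a and Hspa1b are its stress-inducible relatives. Hsp90aa1 and Hsp90ab1 are the cytosolic Hsp90 forms. Dnajb1 is a J-domain protein that loads clients on Hsp70, and Hsph1 (Hsp110) exchanges its nucleotide. Bag3 links Hsp70 to the small heat shock protein Hspb8 and to selective autophagy, and Stub1 (CHIP) is the ubiquitin ligase that reads the tails of Hsp70 and Hsp90.

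Many chaperone genes carry heat shock elements, the binding sites of the heat shock factor Hsf1, near their starts. RefSeq promoter windows (mouse build GRCm38.p6, 250 bases before to 50 bases after a start) were found for 7 of the 10 genes: Hspa1a, Hspa1b, Bag3, Stub1, Hspb8, Hsph1 and Dnajb1. Each was searched for GAANNTTC and TTCNNGAA, the pairings of facing and back-to-back units of the element, which read the same on both strands. At least 1 match was found for 6 of the 7, Dnajb1 holding none. Of all 32851 windows in the table, 7.86% held GAANNTTC, 8.52% held TTCNNGAA and 15.1% held either. The upstream sequences of Hspa1a and Hspa1b are shown because the RNAs of this pair are described together below, and short stretches at the starts of Bag3, Hspb8 and Hsph1 because these genes carry results. The Bag3 and Hsph1 stretches lie after the start (for Hsph1 the upstream one of 2 starts), and that of Hspb8 spans it. The stretches lie at chr17:34972157-34972406 (Hspa1a, minus strand), chr17:34959239-34959488 (Hspa1b, minus strand), chr7:128523603-128523632 (Bag3, plus strand), chr5:116422845-116422874 (Hspb8, minus strand) and chr5:149636287-149636316 (Hsph1, minus strand), and capitals mark the matches.
Hspa1a: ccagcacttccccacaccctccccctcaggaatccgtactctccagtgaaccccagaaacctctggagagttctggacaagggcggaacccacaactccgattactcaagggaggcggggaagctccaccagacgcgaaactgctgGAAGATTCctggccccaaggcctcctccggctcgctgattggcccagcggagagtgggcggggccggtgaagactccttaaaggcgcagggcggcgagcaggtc
Hspa1b: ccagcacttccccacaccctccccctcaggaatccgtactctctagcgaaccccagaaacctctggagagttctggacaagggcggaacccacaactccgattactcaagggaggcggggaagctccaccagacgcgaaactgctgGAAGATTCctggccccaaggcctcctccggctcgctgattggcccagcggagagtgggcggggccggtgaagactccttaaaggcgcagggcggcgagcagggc
Bag3: ccaagttctctggatgggaccaGAAGTTTC
Hspb8: cagaagccaggaGAAGTTTCtaggctcgcg
Hsph1: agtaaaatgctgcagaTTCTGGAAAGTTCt
The match of Hspa1a and Hspa1b begins 104 bases before the start in both genes, and their 300-base windows differ at 4 positions, 3 of them before the start. In Bag3 and Hspb8 the match is the same 8 letters, 42 and 2 bases after the start. In Hsph1 a TTCNNGAA match 36 bases after the upstream start overlaps a GAANNTTC match at 41 bases. A further TTCNNGAA match lies 33 bases before that start. Counted from the other Hsph1 start, these matches lie 15 and 20 bases after it and 54 bases before it. Stub1 holds GAAGCTTC 123 bases before its start. A match describes the letters of the window and was not tested as a binding site.

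The 10 genes were low to moderate in these nuclei, and few of them changed. Of 70 pairs of gene and class that passed the low-count filter, 1 was called different in PS19 against WT and 3 in TG_PS19 against PS19, at an adjusted p under 0.05. Adjusted p-values are from edgeR's quasi-likelihood test of counts summed per library within a class, with Benjamini-Hochberg adjustment over all genes tested in the class. Over all genes in the 12 classes, 2.92% of pairs were called in PS19 against WT and 4.76% in TG_PS19 against PS19, so that the members' shares were near the background. At an unadjusted p under 0.05 there were 9 and 8 pairs. These counts are given without the share over all genes, so they cannot be read as an excess or as the lack of one. DESeq2, run as an alternative, called 0 of the 70 pairs in either comparison, with 0 and 1 pairs under an unadjusted p of 0.05, where it called 0.253% and 0.521% of all pairs. The median log2 fold change of the 70 pairs was 0.046 in PS19 against WT, with 36 of 70 above 0, and 0.00043 in TG_PS19 against PS19, with 35 of 70 above 0. Over all genes the class medians ran from 0.00043 to 0.022 and from -0.020 to -0.0036. The counts rest on 12 classes for Hsp90aa1, Hsp90ab1 and Stub1, 11 for Hspa8, 8 each for Bag3 and Hsph1, 3 for Dnajb1, 2 for Hspb8 and 1 each for Hspa1a and Hspa1b. The pairs left out by the filter were not tested.

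**Figure D1:**
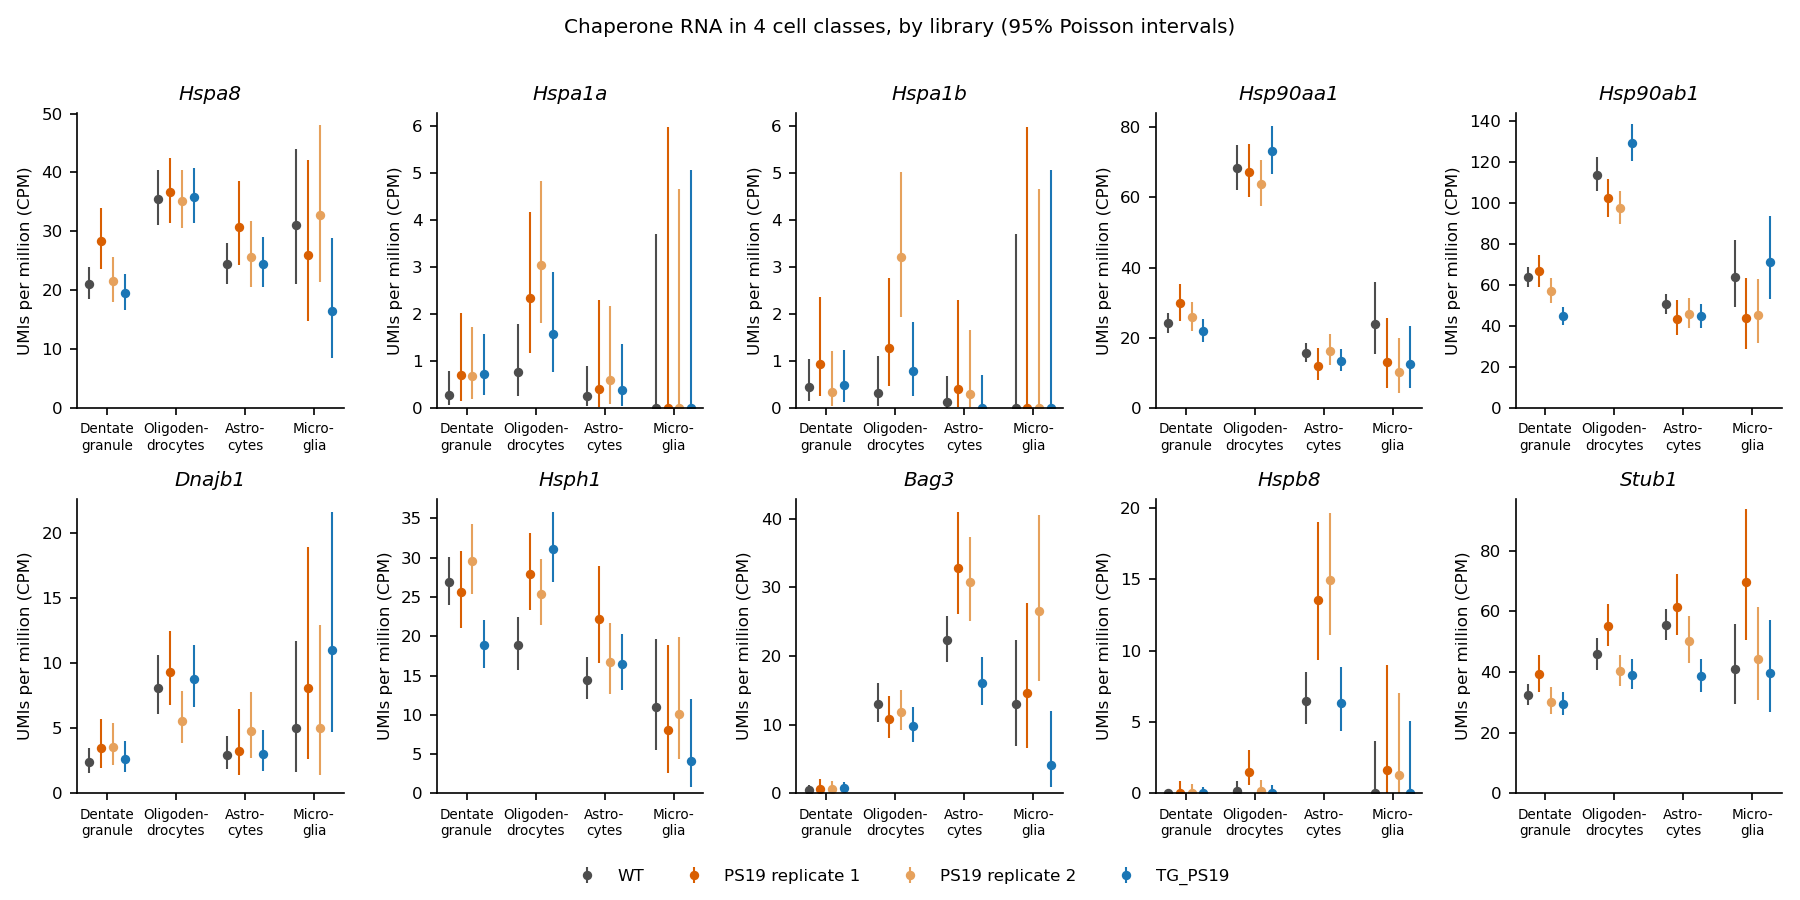
Level of each chaperone RNA in 4 cell classes, in CPM (linear axes from 0), with 1 point per library and exact 95% Poisson intervals that cover counting error only. Hspb8 and Bag3 lie higher in astrocytes of both PS19 libraries than of WT and TG_PS19, Hsp90ab1 in oligodendrocytes is highest in TG_PS19 at 129.5 CPM, and Hspb8 is at 0 in dentate granule neurons of all 4 libraries.

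Hspb8 and Bag3, the pair that hands clients to autophagy, held 3 of the 4 calls, all in astrocytes. Both Hspb8 calls use the same PS19 libraries, and the members' share of calls was near the background. DESeq2 called neither gene. Hspb8 (chr5:116408491-116422864, minus strand) stood at 6.49 CPM in WT (53 UMIs in 2725 nuclei), 13.5 CPM in PS19 replicate 1 (33 UMIs in 618 nuclei), 14.9 CPM in PS19 replicate 2 (50 UMIs in 700 nuclei) and 6.36 CPM in TG_PS19 (34 UMIs in 1645 nuclei). The PS19 libraries were high, the WT and TG_PS19 libraries low, and the groups did not overlap. In PS19, Hspb8 exceeded WT by a log2 fold change of 1.11 (SE 0.31 with an edgeR adjusted p = 0.0079), where 3.19% of all genes tested in astrocytes were called higher. It was lower in TG_PS19 than in PS19 by -0.996 (SE 0.34 with an edgeR adjusted p = 0.0358), where 3.89% of genes were called lower. Hspb8 UMIs were found in 1.87% of WT astrocytes, 4.85% and 6.14% of PS19 astrocytes and 1.95% of TG_PS19 astrocytes, at median depths of 2876, 3688.5, 4508 and 3065 UMIs. After thinning each nucleus to 1000 UMIs, the shares were 0.442%, 1.14%, 1.72% and 0.798%, from 12, 7, 12 and 13 nuclei. WT and TG_PS19 were still the lowest. The interval of PS19 replicate 1 (0.458% to 2.33%) overlapped those of WT (0.229% to 0.771%) and TG_PS19 (0.425% to 1.36%). The fit after thinning called 0 members in either comparison. In dentate granule neurons, which are sequenced more deeply, Hspb8 had 0 UMIs in all 4 libraries, which allows at most 0.268 to 0.693 CPM (3 UMIs per library).

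Bag3 (chr7:128523616-128546981, plus strand), the scaffold of this complex, followed a like order in astrocytes. Its level was 22.3 CPM in WT (182 UMIs), 32.8 and 30.8 CPM in the PS19 pair (80 and 103 UMIs) and 16.1 CPM in TG_PS19 (86 UMIs). TG_PS19 was the lowest library and the PS19 pair the highest. Bag3 was lower in TG_PS19 than in PS19 by -0.81 (SE 0.23 with an edgeR adjusted p = 0.0089). The difference between PS19 and WT was 0.48 (SE 0.21) and did not pass the test (edgeR adjusted p = 0.185). Bag3 UMIs were in 5.98%, 9.87%, 12.3% and 4.80% of astrocytes in the order above, and after thinning in 1.77%, 3.41%, 3.58% and 1.53%. In dentate granule neurons, with a median of at least 6516 UMIs per nucleus, Bag3 was in 0.375% to 0.622% of nuclei.

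Within the astrocytes, the make-up of the class differed between the groups. A cluster led by Gfap, the intermediate filament of reactive astrocytes, and Myoc made up 21.8% of WT, 42.6% and 43.7% of PS19 and 21.4% of TG_PS19 astrocytes. A cluster led by Gpc5 and Rorb made up 72.1%, 53.4%, 51.1% and 73.8%. Hspb8 in the Gpc5 and Rorb cluster stood at 2.35, 2.41, 3.69 and 3.54 CPM in WT, the PS19 pair and TG_PS19, and in the Gfap and Myoc cluster at 20.9, 26.6, 28.1 and 14.2 CPM. Fitted alone in the Gfap and Myoc cluster, Hspb8 differed by 0.37 (SE 0.33 with an edgeR adjusted p = 0.690) between PS19 and WT and by -0.77 (SE 0.40 with an edgeR adjusted p = 0.284) in TG_PS19 against PS19, and neither passed. In the Gpc5 and Rorb cluster it differed by 0.44 and 0.28 (edgeR adjusted p = 0.977 and 0.959). Hspb8 was thus not called in either cluster, each of which holds fewer UMIs than the class.

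Bag3 in the Gpc5 and Rorb cluster was nearly level over the libraries, at 18.0 CPM in WT, 17.6 and 18.4 CPM in the PS19 pair and 15.4 CPM in TG_PS19. In the Gfap and Myoc cluster it stood at 36.0 CPM in WT (62 UMIs), 49.5 and 46.3 CPM in the PS19 pair (54 and 71 UMIs) and 19.6 CPM in TG_PS19 (22 UMIs). TG_PS19 lay below the other 3 libraries there. Bag3 was lower in TG_PS19 than in PS19 within this cluster, by -1.11 (SE 0.33 with an edgeR adjusted p = 0.0172), against a background of 6.79% of genes called in either direction. The cluster fits were chosen after seeing the data.

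**Figure D2:**
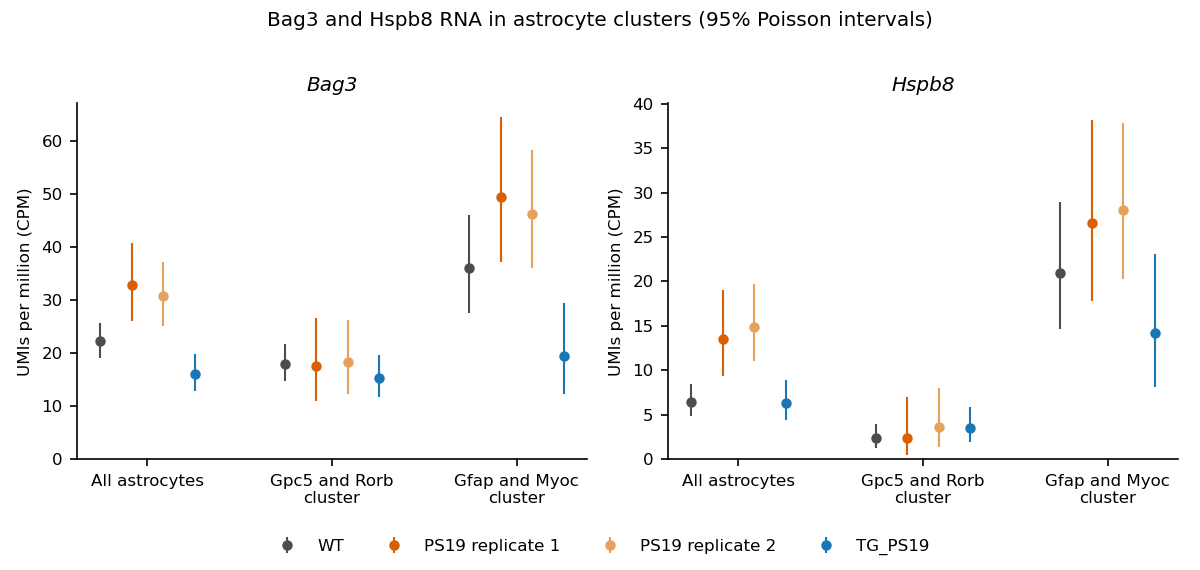
Bag3 and Hspb8 in all astrocytes and in their 2 largest clusters, in CPM on linear axes from 0, with 1 point per library and exact 95% Poisson intervals. Both RNAs are higher in the Gfap and Myoc cluster than in the Gpc5 and Rorb cluster in every library, and Bag3 in the Gfap and Myoc cluster is lowest in TG_PS19, at 19.6 CPM.

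Immediate-early and dissociation-linked genes moved with these results in astrocytes. Their 19 genes summed to 168 CPM in WT, 312 and 290 CPM in the PS19 pair and 90.7 CPM in TG_PS19, with 1, 3, 2 and 2 of the 19 at 0. Neuronal markers in astrocytes (12 genes, none at 0) summed to 1724, 1575, 1777 and 1501 CPM. The part of the early genes and of the cluster make-up in the class results was not tested. With only the TG_PS19 nuclei marked as male, the differences from PS19 were -0.67 (SE 0.45 with an edgeR adjusted p = 0.456) for Hspb8 and -0.66 (SE 0.30 with an edgeR adjusted p = 0.191) for Bag3, and neither was called. With only those marked as female they were -0.99 (SE 0.40 with an edgeR adjusted p = 0.107) and -0.81 (SE 0.27 with an edgeR adjusted p = 0.0292). The fall of Hspb8 in TG_PS19 lost its call in 8 of 12 alternative settings.

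Outside astrocytes, both genes were found in fibroblasts and endothelial cells. Hspb8 stood at 8.20 to 15.7 CPM in fibroblasts and 8.02 to 23.6 CPM in endothelial cells, at 0 to 3.94 CPM in mural cells (at most 1 UMI in a library), and at 0 in CA1 pyramidal, Cajal-Retzius and other excitatory neurons of all 4 libraries. Bag3 had its highest class mean in fibroblasts (46.0 CPM, libraries from 37.5 to 52.4), followed by Cajal-Retzius neurons (43.5 CPM, libraries from 25.6 to 66.3), and these ranges overlapped. In microglia Bag3 was 13.01 CPM in WT, 14.6 and 26.5 CPM in the PS19 pair and 4.12 CPM in TG_PS19, from 13, 9, 21 and 3 UMIs. The low TG_PS19 value gave -2.24 (SE 0.85) against PS19 and did not pass (edgeR adjusted p = 0.0758). The microglia differed in make-up too: a cluster led by Ly86 and Fyb held 3.90% of WT, 72.5% and 75.7% of PS19 and 2.91% of TG_PS19 microglia.

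Hsp90ab1 (chr17:45567775-45573271, minus strand), the constitutive Hsp90, was highest in oligodendrocytes among the 12 classes, with a mean of 110.9 CPM over the libraries, followed by endothelial cells at 98.7 CPM with overlapping ranges. In oligodendrocytes it stood at 113.9 CPM in WT (744 UMIs), 102.4 and 97.8 CPM in the PS19 pair (484 and 578 UMIs) and 129.5 CPM in TG_PS19 (823 UMIs). TG_PS19 was the highest library and the PS19 pair the lowest. Hsp90ab1 was higher in TG_PS19 than in PS19 by 0.43 (SE 0.13 with an edgeR adjusted p = 0.0136), where 5.72% of genes tested in oligodendrocytes were called higher. PS19 against WT gave -0.15 (SE 0.13) and did not pass (edgeR adjusted p = 0.649).

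The oligodendrocytes fell into 3 clusters, whose shares differed between the groups. A cluster led by 7630403G23Rik and Slc13a1, with Il33 and Opalin among its leading genes, held 14.5% of WT, 36.7% and 36.4% of PS19 and 12.4% of TG_PS19 oligodendrocytes. A cluster led by Slc13a1 and C030029H02Rik held 49.0%, 22.3%, 23.1% and 46.6%, and a cluster led by Anln and Enpp6 held 36.4%, 41.0%, 40.6% and 40.9%. Enpp6 is on the list of committed oligodendrocyte precursors, so results for the class are also given without that cluster or by cluster. In the Slc13a1 and C030029H02Rik cluster Hsp90ab1 stood at 121, 86.9, 80.6 and 139 CPM in WT, the PS19 pair and TG_PS19, and was higher in TG_PS19 than in PS19 by 0.79 (SE 0.19 with an edgeR adjusted p = 0.0040, background 2.39%). In the Anln and Enpp6 cluster the levels were 97.7, 77.9, 77.0 and 111 CPM, with a difference of 0.58 (SE 0.16 with an edgeR adjusted p = 0.0142, background 4.58%). In the cluster led by 7630403G23Rik the levels were 139, 143, 135 and 164 CPM, and the difference of 0.33 (SE 0.19) did not pass (edgeR adjusted p = 0.433). Without the Anln and Enpp6 cluster the class difference was 0.36 (SE 0.15 with an edgeR adjusted p = 0.123) and was not called. With only the TG_PS19 nuclei marked as male it was 0.33 (SE 0.15 with an edgeR adjusted p = 0.207), and with those marked as female 0.57 (SE 0.14 with an edgeR adjusted p = 0.0022).

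In dentate granule neurons, where the excitatory input to the hippocampus first arrives, Hsp90ab1 stood at 63.8 CPM in WT (713 UMIs), 66.7 and 57.0 CPM in the PS19 pair (289 and 339 UMIs) and 44.7 CPM in TG_PS19 (370 UMIs), the lowest library. The difference of TG_PS19 from PS19 was -0.36 (SE 0.13) and did not pass (edgeR adjusted p = 0.0556). It was -0.41 with only the female-marked TG_PS19 nuclei (SE 0.14 with an edgeR adjusted p = 0.0378) and -0.32 with the male-marked TG_PS19 nuclei (SE 0.18 with an edgeR adjusted p = 0.359). The change in oligodendrocytes differed from that in dentate granule neurons by 0.85 (SE 0.15 with an edgeR adjusted p = 2.36e-06 for the class by group term), where 2.59% of genes were called between these classes. The same term in astrocytes was 0.54 (SE 0.19 with an edgeR adjusted p = 0.290) and in microglia 1.05 (SE 0.33 with an edgeR adjusted p = 0.0707), and neither passed.

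Across classes, the Hsp90ab1 estimate for PS19 against WT was below 0 in all 12 classes tested, from -1.08 in Cajal-Retzius neurons to -0.04 in dentate granule neurons, and none was called (4 under an unadjusted p of 0.05 with edgeR, 0 with DESeq2). It was below 0 in all 12 as well with library totals, relative log expression scaling and DESeq2. In inhibitory neurons Hsp90ab1 stood at 88.8 CPM in WT (113 UMIs), 47.3 and 44.0 CPM in the PS19 pair (26 and 45 UMIs) and 57.1 CPM in TG_PS19 (76 UMIs). WT was the highest there, and the difference of -0.96 (SE 0.28) did not pass (edgeR adjusted p = 0.0905). For TG_PS19 against PS19 the estimate was above 0 in 10 of 12 classes, and in 8 of 12 with library totals, a scaling that moved the median of all genes by over 0.1 in astrocytes, to -0.187, and in CA1 pyramidal neurons, to -0.123. With it the median was -0.104 in other excitatory neurons and -0.103 in dentate granule neurons. The 12 classes come from the same 4 libraries and are not replicates.

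Hsp90aa1 (chr12:110690605-110702728, minus strand), the inducible Hsp90, was highest in oligodendrocytes as well. Its levels there were 68.4 CPM in WT, 67.3 and 63.8 CPM in the PS19 pair and 73.3 CPM in TG_PS19, each above every library's level in the other 11 classes. Inhibitory neurons came next at 34.2 to 37.7 CPM, and astrocytes had the lowest class mean (14.2 CPM, libraries from 11.9 to 16.1), next to microglia (14.9 CPM, libraries from 10.1 to 24.0), with overlapping ranges. Hsp90aa1 was called in none of the 12 classes in either comparison. In microglia it stood at 24.0 CPM in WT, 12.96 and 10.1 CPM in the PS19 pair and 12.4 CPM in TG_PS19, from 24, 8, 8 and 9 UMIs, and the difference of PS19 from WT was -1.06 (SE 0.57 with an edgeR adjusted p = 0.291). Its dentate granule neuron levels were 24.1, 29.8, 25.9 and 21.9 CPM. The transcripts of the Hsp90 pair are 77.1% identical over aligned bases (69.8% in the last 500 bases), and reads of 1 gene could be counted under the other only where they match it.

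Hspa8 (chr9:40800984-40810087, plus strand), the constitutive Hsp70, was called in none of 11 classes in either comparison. In oligodendrocytes its levels were 35.5, 36.6, 35.2 and 35.9 CPM in WT, the PS19 pair and TG_PS19, within each other's counting intervals. In astrocytes they were 24.4, 30.8, 25.7 and 24.5 CPM and in dentate granule neurons 21.1, 28.4, 21.5 and 19.6 CPM. PS19 replicate 1 was the highest library in both of these classes, and PS19 replicate 2 lay closer to WT. The difference of PS19 from WT in dentate granule neurons was 0.24 (SE 0.17 with an edgeR adjusted p = 0.626), and that of TG_PS19 from PS19 -0.24 (SE 0.18 with an edgeR adjusted p = 0.522). Among classes with at least 50 nuclei in every library, the Hspa8 class mean was highest in mural cells at 47.8 CPM (63 UMIs). It was lowest in other excitatory neurons at 19.1 CPM, and the ranges of neighbouring classes overlapped. Its gene body also holds Snord14c, Snord14d and Snord14e.

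The inducible Hsp70 genes Hspa1a (chr17:34969190-34972156, minus strand) and Hspa1b (chr17:34956436-34959238, minus strand) were nearly silent. Their transcripts are 94.3% identical over aligned bases, so that reads may be split between them in an uncertain way, and Hspa1a overlaps Gm20481 on the other strand. In all kept nuclei the pair summed to 51 UMIs in WT, 44 and 63 in PS19 and 40 in TG_PS19, or 1.25, 2.35, 2.57 and 1.19 CPM. Microglia, inhibitory neurons and Cajal-Retzius neurons had 0 UMIs of either gene in all 4 libraries. Only oligodendrocytes had enough UMIs of each gene for a test. There Hspa1a had 5, 11, 18 and 10 UMIs and Hspa1b 2, 6, 19 and 5 UMIs in WT, the PS19 pair and TG_PS19. Hspa1a differed between PS19 and WT by 1.84 (SE 0.76 with an edgeR adjusted p = 0.142) and Hspa1b by 2.88 (SE 1.00 with an edgeR adjusted p = 0.0570), and neither passed.

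Summed before the fit, a choice made after seeing the data because the genes are near copies, the pair passed in oligodendrocytes. The sum was 1.07 CPM in WT (7 UMIs, interval 0.431 to 2.21), 3.60 CPM in PS19 replicate 1 (17 UMIs, 2.10 to 5.76), 6.26 CPM in PS19 replicate 2 (37 UMIs, 4.41 to 8.63) and 2.36 CPM in TG_PS19 (15 UMIs, 1.32 to 3.89). WT was lowest, and the interval of PS19 replicate 1 overlapped those of WT and TG_PS19. In PS19 the sum exceeded that of WT by 2.25 (SE 0.57 with an edgeR adjusted p = 0.0026), where 2.57% of genes tested in oligodendrocytes were called higher. TG_PS19 against PS19 gave -1.03 (SE 0.49) and did not pass (edgeR adjusted p = 0.199). In dentate granule neurons the sum had 8, 7, 6 and 10 UMIs and differed by 0.83 (edgeR adjusted p = 0.778) and 0.02.

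The oligodendrocyte UMIs of the pair lay mostly in the cluster led by 7630403G23Rik and Slc13a1, whose share is larger in PS19. That cluster held 3 UMIs in WT, 16 and 34 in PS19 and 5 in TG_PS19, or 3.34, 9.70, 16.5 and 6.37 CPM. The Anln and Enpp6 cluster held 1, 1, 1 and 5 UMIs and the Slc13a1 and C030029H02Rik cluster 3, 0, 2 and 5. Within the first cluster PS19 replicate 2 was the highest library and WT the lowest, while the interval of PS19 replicate 1 overlapped those of WT and TG_PS19. The part of the cluster make-up in the class result was not tested. Immediate-early genes in oligodendrocytes summed to 178 CPM in WT, 204 and 171 CPM in the PS19 pair and 116 CPM in TG_PS19.

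**Figure D3:**
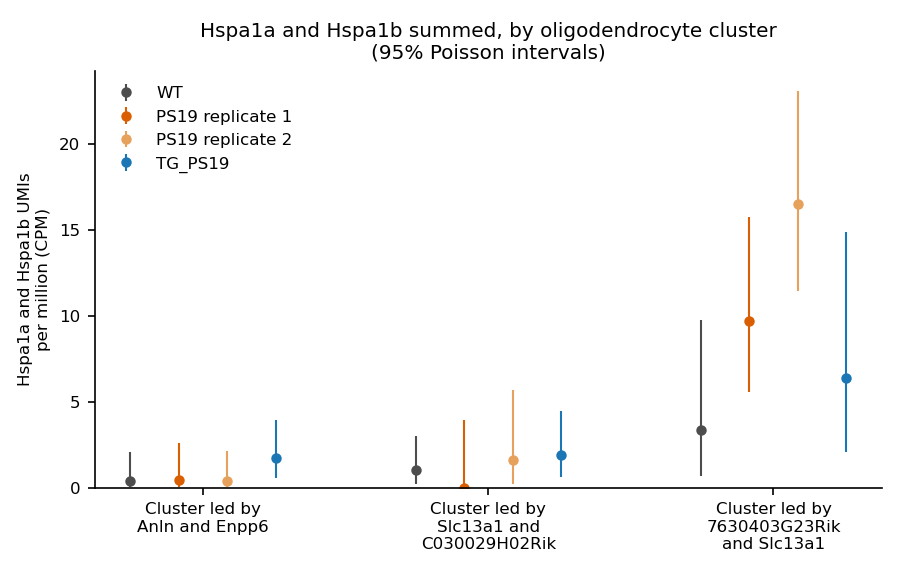
Hspa1a and Hspa1b summed in 3 oligodendrocyte clusters, in CPM on a linear axis from 0, with 1 point per library and exact 95% Poisson intervals. The values in the cluster led by 7630403G23Rik run from 3.34 CPM in WT to 16.5 CPM in PS19 replicate 2, and the other 2 clusters stay near 0.

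Hsph1 (chr5:149614287-149636376, minus strand), the Hsp110 exchange factor, showed a class difference like that of Hsp90ab1. Its level in dentate granule neurons was 26.9 CPM in WT (301 UMIs), 25.6 and 29.6 CPM in the PS19 pair (111 and 176 UMIs) and 18.8 CPM in TG_PS19 (156 UMIs). In oligodendrocytes it stood at 18.8 CPM in WT (123 UMIs), 27.9 and 25.4 CPM in the PS19 pair (132 and 150 UMIs) and 31.1 CPM in TG_PS19 (198 UMIs). TG_PS19 was the lowest library in the neurons and the highest in oligodendrocytes, where WT was lowest. TG_PS19 against PS19 gave -0.47 (SE 0.18 with an edgeR adjusted p = 0.0837) in dentate granule neurons and 0.29 (SE 0.18 with an edgeR adjusted p = 0.366) in oligodendrocytes, and neither passed alone. The difference between these changes was 0.81 (SE 0.22) and passed (edgeR adjusted p = 0.0151). Of 24 such differences over 3 pairs of classes, these of Hsp90ab1 and Hsph1 were the 2 called in TG_PS19 against PS19. There the background of calls was 1.88%, and 5 differences lay under an unadjusted p of 0.05. In PS19 against WT 0 were called by edgeR, where the background of calls was 2.94%, and 1 lay under an unadjusted p of 0.05. The Hspb8 term of astrocytes could not be estimated because dentate granule neurons had 0 UMIs.

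The Hsph1 difference depended on which nuclei entered the fit. Without the Anln and Enpp6 cluster it was 0.53 (SE 0.26 with an edgeR adjusted p = 0.437), where that of Hsp90ab1 was 0.78 (SE 0.16 with an edgeR adjusted p = 0.000370). With only the TG_PS19 nuclei marked as male it was 0.13 (SE 0.37 with an edgeR adjusted p = 0.981). With only the TG_PS19 nuclei marked as female it was 1.39 (SE 0.25 with an edgeR adjusted p = 1.82e-05). The nuclei of the other libraries were not restricted by sex in these fits. In oligodendrocytes alone the change was -0.26 (SE 0.26) with the male nuclei and 0.89 (SE 0.19 with an edgeR adjusted p = 0.000302) with the female nuclei. The Hsp90ab1 difference was 0.64 (SE 0.22 with an edgeR adjusted p = 0.144) with the male and 0.97 (SE 0.17 with an edgeR adjusted p = 3.20e-06) with the female nuclei. The other libraries held almost no nuclei marked as female, and a test within female nuclei of every group could not be made.

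**Figure D4:**
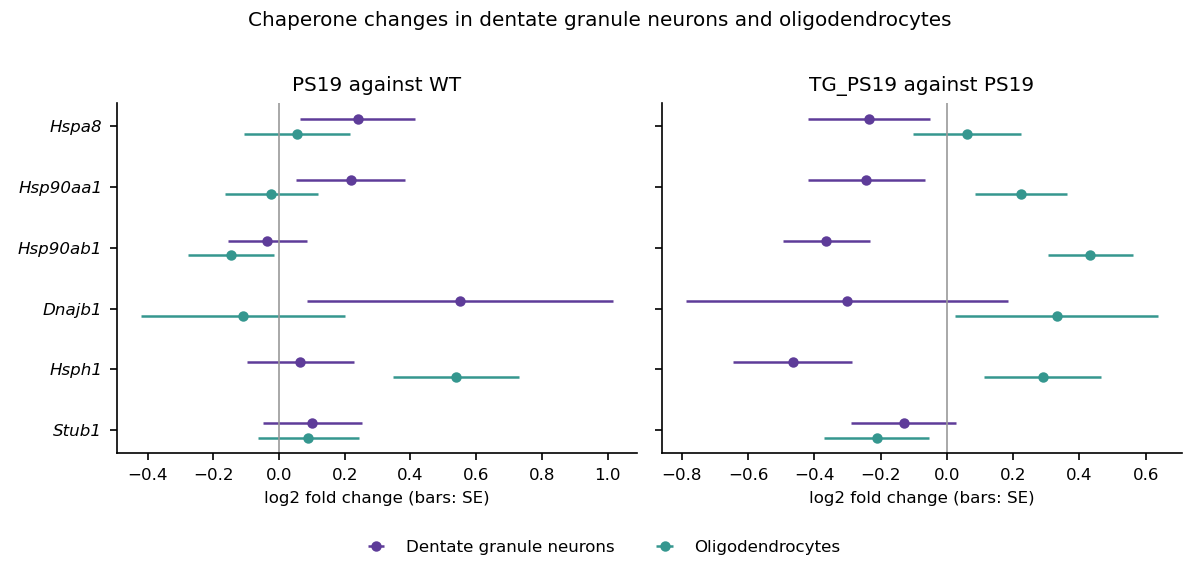
Log2 fold changes with standard errors for 6 chaperones in dentate granule neurons and oligodendrocytes, PS19 against WT at left and TG_PS19 against PS19 at right, from the edgeR fit. At right Hsp90ab1 lies at -0.36 in the neurons and 0.43 in oligodendrocytes and Hsph1 at -0.47 and 0.29, while Stub1 lies below 0 in both.

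For PS19 against WT, Hsph1 in oligodendrocytes gave 0.54 (SE 0.19), which did not pass (edgeR adjusted p = 0.0661). Without the Anln and Enpp6 cluster it passed, at 1.01 (SE 0.24 with an edgeR adjusted p = 0.0012). By cluster, the levels in the Slc13a1 and C030029H02Rik cluster were 15.5 CPM in WT, 27.6 and 33.2 CPM in the PS19 pair and 30.1 CPM in TG_PS19. WT was the lowest there, and PS19 exceeded WT by 1.04 (SE 0.31 with an edgeR adjusted p = 0.0455, background 2.08%). In the Anln and Enpp6 cluster the levels were 23.1, 23.9, 18.2 and 32.6 CPM, with a difference of -0.11 (SE 0.27 with an edgeR adjusted p = 0.931).

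Dnajb1 (chr8:83608193-83612653, plus strand), the J-domain partner of Hsp70, was sparse. In all kept nuclei it had 162 UMIs in WT, 95 and 98 in PS19 and 163 in TG_PS19, or 3.98, 5.08, 3.99 and 4.84 CPM. Its oligodendrocyte levels were 8.11, 9.31, 5.59 and 8.81 CPM, and the PS19 libraries lay at the top and the bottom of that range. It was called in none of the 3 classes in which it could be tested.

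Stub1 (chr17:25830505-25833404, minus strand), the ubiquitin ligase CHIP, was present in all 12 classes tested. Their class means ran from 24.7 CPM in CA1 pyramidal neurons to 65.0 CPM in mural cells. It overlaps Jmjd8 and Gm26694 on the other strand and holds Mir3082. In astrocytes it stood at 55.5 CPM in WT, 61.6 and 50.2 CPM in the PS19 pair and 38.5 CPM in TG_PS19, the lowest library. That difference from PS19 was -0.35 (SE 0.18) and did not pass (edgeR adjusted p = 0.244). In oligodendrocytes the levels were 45.8, 55.2, 40.3 and 39.2 CPM and in dentate granule neurons 32.4, 39.2, 30.3 and 29.4 CPM, with PS19 replicate 1 above its own replicate in each. Stub1 was called in none of the 12 classes in either comparison.

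The wider network was read from 81 genes in 7 lists, of which 79 could be tested, in 787 pairs of gene and class. In PS19 against WT 14 pairs were higher and 0 lower, where 1.37% of all pairs were called higher and 1.55% lower. At an unadjusted p under 0.05 there were 62. Unadjusted counts of the network are given without the share over all genes. In TG_PS19 against PS19 5 pairs were higher and 19 lower, with 74 under an unadjusted p of 0.05, where 3.04% of all pairs were called higher and 1.72% lower. The median log2 fold changes of the 787 pairs were 0.0066 and -0.062. Calls higher in PS19 than in WT were made for 5 of 184 pairs of Hsp90 co-chaperones, 2 of 152 of J-domain proteins, 2 of 132 of the Hsp70 family and its exchange factors and 5 of 160 of ubiquitin and autophagy partners. None was made by edgeR among 101 pairs of chaperonins (4 under an unadjusted p of 0.05), 47 of heat shock factors (3) and 11 of small heat shock proteins (2). In TG_PS19 against PS19 the ubiquitin and autophagy partners gave 11 lower and 0 higher of 160.

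Fkbp5, an Hsp90 co-chaperone whose transcription is raised by glucocorticoids, was higher in PS19 than in WT in 5 classes. In astrocytes its scaled level (CPM after TMM scaling) was 5.57 in WT, 24.2 and 26.0 in PS19 and 13.9 in TG_PS19, and the log2 difference of PS19 from WT was 2.17 (SE 0.28 with an edgeR adjusted p = 3.45e-12). In endothelial cells it was 35.2 in WT, 131 and 166 in PS19 and 156 in TG_PS19, a change of 2.07. Oligodendrocytes changed by 1.56, fibroblasts by 1.13 and microglia by 0.75. WT was the lowest library in all 5 classes. Fkbp5 was lower in TG_PS19 than in PS19 in astrocytes, by -0.85 (SE 0.26 with an edgeR adjusted p = 0.0174).

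Synpo2, which joins Bag3 in chaperone-assisted autophagy, was higher in PS19 than in WT in astrocytes, at scaled levels of 47.6 in WT, 113 and 111 in PS19 and 69.6 in TG_PS19 (1.23, SE 0.15, edgeR adjusted p = 3.89e-13). It was lower in TG_PS19 than in PS19 by -0.68 (SE 0.15 with an edgeR adjusted p = 0.000307). Cryab, a small heat shock protein, was lower in TG_PS19 than in PS19 in astrocytes by -0.87 (SE 0.27 with an edgeR adjusted p = 0.0198), at 14.0, 26.1, 18.7 and 12.1. Synpo2 is among the 10 leading genes of the cluster led by Myoc and Gfap at the lower and higher clustering resolutions, and the share of such nuclei is larger in PS19, as given above. The part of that share in the Synpo2 and Cryab values was not tested.

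Sqstm1 (p62), the receptor that carries ubiquitinated cargo to autophagy, was lower in TG_PS19 than in PS19 by -1.05 in microglia, -0.63 in oligodendrocytes and -0.58 in astrocytes, and TG_PS19 was its lowest library in each. Dnajb14, a J-domain protein of the endoplasmic reticulum membrane, stood at 59.9 in WT, 124 and 123 in PS19 and 61.9 in TG_PS19 in microglia. PS19 exceeded WT by 1.04 (SE 0.25 with an edgeR adjusted p = 0.000819), and TG_PS19 differed from PS19 by -0.99 (SE 0.27 with an edgeR adjusted p = 0.0053). The microglial clusters above change with the same groups.

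Genes higher in TG_PS19 than in PS19 were Ahsa2, a relative of the Hsp90 activator Ahsa1 (0.68 in astrocytes and 0.52 in oligodendrocytes), Tcp1, a chaperonin subunit (0.59 in astrocytes, at 80.5, 91.5, 97.8 and 143), Hspa12a, a distant Hsp70 (0.48 in dentate granule neurons), and Hspa4l, a relative of Hsph1 (0.43 in oligodendrocytes). Of 121 pairs of the immediate-early list, 12 were called higher and 2 lower in PS19 against WT. Over all pairs 1.37% were called higher and 1.55% lower in that comparison. In TG_PS19 against PS19 0 pairs of the list were called higher and 23 lower, where 3.04% and 1.72% of all pairs were. The part of this list in these network results was not tested.

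**Figure D5:**
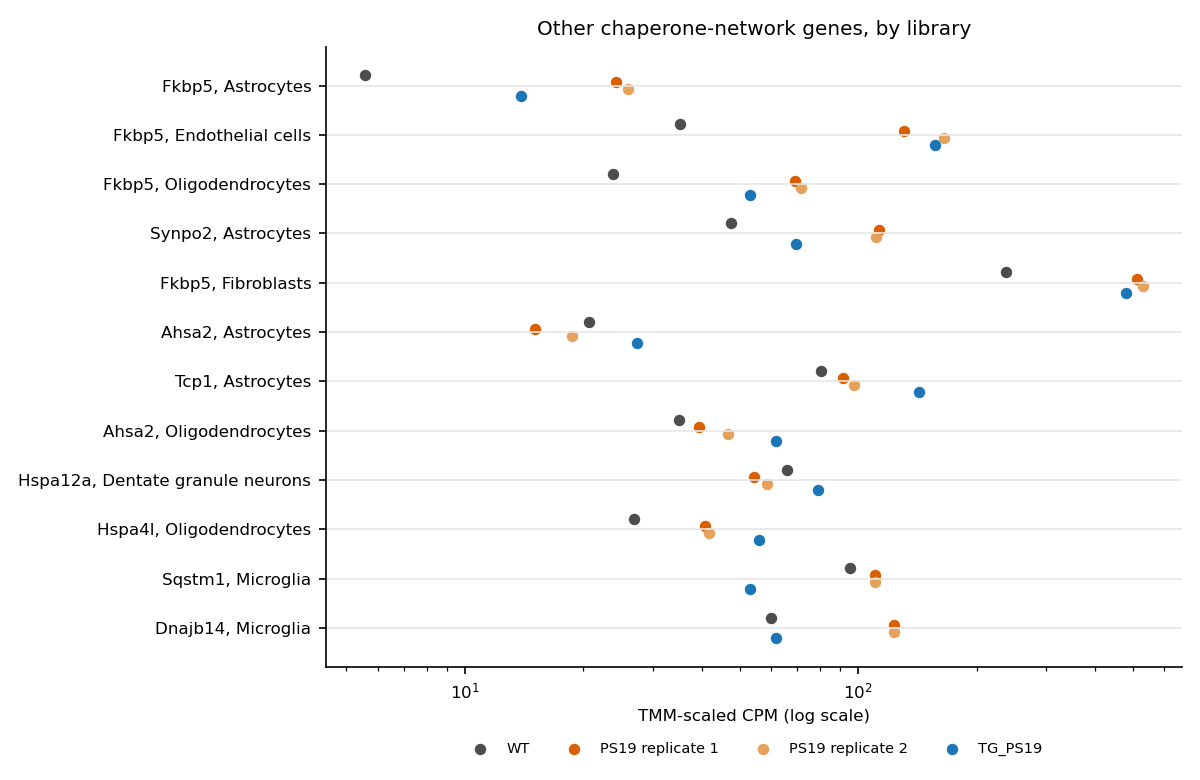
Scaled levels (CPM after TMM scaling, log axis) of 12 pairs of network gene and class named by size of the called change, 1 point per library. WT is the lowest point for Fkbp5 in all 4 classes shown, and TG_PS19 is the lowest for Sqstm1.

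The genes whose pattern over classes and libraries was most like that of Hspa8 and Hsp90aa1 are given as a description. Levels of 4181 genes were compared over 48 sums of class and library, centred within each class, which share libraries and depth. For Hspa8 the closest were Nagk (Pearson r 0.69), Cnot1 (0.59), Srsf2 (0.58), Rps21 (0.58) and Pi4ka (0.56). For Hsp90aa1 they were Pdcd10 (0.69), Negr1 (0.58), Rpl13 (0.54), Acsl3 (0.52) and Fgf14 (0.51). No other member was among these closest genes, but a minimum level of 50 CPM was set for the genes compared. Dnajb1, Hspa1a, Hspa1b, Hspb8 and Hsph1 lay below 50 CPM in every library of every class tested. These members could not have appeared, so their absence says nothing about a shared pattern.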

How the data were processed

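Single nuclei from pooled frozen hippocampus were sequenced with 10x 3′ v3.1 chemistry, per the labels' protocols, and counted with Cell Ranger 7.1.0 against GRCm38, per the submitters' processing notes. The deposited values are raw UMI counts per gene and barcode, not normalized by the authors. Annotation came from GENCODE M21, which matched 54349 of 55403 features.

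Kept nuclei had 500 UMIs and 300 genes or more and no more than 5% mitochondrial counts, and doublets were removed by comparison with simulated doublets, at a share of 0.8% per 1000 barcodes (172 to 1303 per library). Clusters (2000 variable genes, 30 components, Leiden resolution 1) were named from marker lists, and the naming rule was settled after the clusters were seen. Between 1.48% and 8.60% of kept nuclei stayed unnamed. Oligodendrocytes include a cluster led by Anln and Enpp6. CPM is a gene's UMIs scaled to a common total for its class. Intervals are exact Poisson at 95% and, like the floors of 3 counts, cover counting error only.

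Counts were summed per class and library and fitted with edgeR 4.0.16 (TMM, filterByExpr, quasi-likelihood test, R 4.3.3), all 4 libraries in each fit, so that the lone WT and TG_PS19 libraries are assumed to vary like the PS19 pair. Counts of the PS19 libraries differed beyond sampling noise (chi-square per degree of freedom 1.48 to 2.98). Differences between classes were tested with an interaction term and a library block. DESeq2 1.42.0, other scalings, filters, resolutions, thinning to 1000 UMIs and subsets of nuclei were alternatives. Fits of single clusters, of the summed Hspa1 pair and without the Anln and Enpp6 cluster were added after seeing the data. The fits were tested on simulated data. The 10 genes and all lists were chosen with earlier results of these data known. The text names all 10 genes, and of the network the 5 called pairs with the largest change in each direction and at least 50 UMIs, with a few further called pairs chosen after their values were seen. Some of the pairs this rule names are not reported here. Overlapping genes and near copies may share reads. RefSeq promoters (GRCm38.p6) held no entry used here for Hspa8, Hsp90aa1 and Hsp90ab1.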

Additional observations from a re-analysis of the deposited data

Results flagged for a closer look

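Results were listed here where a change differed between cell classes by a test of the difference itself, and 2 met that rule, both for TG_PS19 against PS19 in oligodendrocytes relative to dentate granule neurons. For Hsp90ab1 the change in oligodendrocytes exceeded that in the neurons by 0.85 on the log2 scale, and for Hsph1 by 0.81. In oligodendrocytes TG_PS19 was the highest library for both genes, and in dentate granule neurons it was the lowest. With only the TG_PS19 nuclei marked as male, the difference was 0.64 for Hsp90ab1 and 0.13 for Hsph1, and neither was called. The part of the mixed sex of the TG_PS19 pool in them was not tested.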

How the results depend on the processing

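Each alternative changed 1 choice. The count of members called in PS19 against WT (1) was 0 with DESeq2, 2 without the low-count filter, 2 with doublets kept, 0 after thinning and 2 without the Anln and Enpp6 cluster. The 14 network calls were 4 with DESeq2 and 4 after thinning, and the class differences (0) were 1 without the Anln and Enpp6 cluster. In TG_PS19 against PS19 the members called (3) were 5 with library totals (2 of them shared), 0 with DESeq2, 0 after thinning and 0 with male-marked nuclei. The 24 network calls were 1 with DESeq2, 5 after thinning and 14 with male-marked nuclei (9 shared). The class differences (2) were 1 without the filter, 1 with doublets kept, 0 after thinning, 0 with male-marked nuclei and 1 without the Anln and Enpp6 cluster.

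Of 218 alternative values for 20 single results, 182 kept their direction and side of the threshold, 25 lost a call, 8 gained one and 3 changed sign. Those 3 were uncalled: Hsph1 in dentate granule neurons for PS19 against WT (-0.034 with doublets kept and -0.016 at resolution 2) and Hsph1 in oligodendrocytes for TG_PS19 against PS19 (-0.26 with male-marked nuclei). The fall of Hspb8 in TG_PS19 astrocytes lost its call in 8 of 12 alternatives (adjusted p 0.0082 to 1.00), and its rise in PS19 in 2 of 10. The Bag3 call was lost in 3 of 12, that of Hsp90ab1 in oligodendrocytes in 5 of 13, and the class differences of Hsp90ab1 and Hsph1 in 2 and 5 of 12. The cause was not tested. Leaving out either PS19 library gives a value with no test: Hspb8 ran from 1.03 to 1.19 and from -1.07 to -0.91, Bag3 in astrocytes from -0.85 to -0.77 and Hsp90ab1 in oligodendrocytes from 0.41 to 0.45. Of 34 such values 32 kept their direction, the exceptions being Hsph1 (-0.07) and Hsp90ab1 (0.07) in dentate granule neurons for PS19 against WT without replicate 2. No paired analysis was possible because the WT and TG_PS19 libraries carry no replicate numbers. Class differences were not run with DESeq2. Depth limits Hspa1a, Hspa1b, Hspb8 and Dnajb1, which had few UMIs in most classes.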
